A study of Mus musculus with 12 samples.

Results

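The globin and erythroid genes of tumour tissue were followed through 13 probe sets, of 22626 on the array once control probe sets were left out. They were the 4 probe sets that the array annotation assigns to several haemoglobin genes at once, and every probe set of Hbb-b2 (2), Alas2 (1), Slc4a1 (3), Klf1 (1), Gata1 (1) and Epor (1). Where a gene has several probe sets they are told apart by letters in the order of their array identifiers: alpha a, b and c for the sets assigned to both Hba-a2 and Hba-a1, a and b for Hbb-b2, and a, b and c for Slc4a1. The members were chosen from signals measured on these same arrays, because haemoglobin probe sets had stood far apart between treatment groups, so that their values, and the counts of members past a threshold, are given as a description and support no statement.

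The tumours were grown from C26, a murine colon carcinoma line, injected under the skin of the dorsal flank of Balb/c mice aged 6 weeks. At day 8 the mice received PBS, free doxorubicin (Dox), a DNA-intercalating anticancer drug that blocks topoisomerase II, or CP-Dox, in which doxorubicin is carried by a chimeric polypeptide. The tumours were collected 48 h later, with 4 mice per group and 1 array per tumour, 12 arrays in all. There was no group with the carrier alone, and the labels give no dose. A line injected into syngeneic mice grows with host vessels and stroma, so whole-tumour RNA can hold RNA of blood and stroma as well as of tumour cells.

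Haemoglobin is assembled from alpha-like and beta-like globin chains and haem. Adult mouse alpha chains come from the near-identical genes Hba-a1 and Hba-a2, and beta chains from a pair of adult genes, annotated Hbb-b1 and Hbb-b2 in Balb/c-type haplotypes and Hbb-bs and Hbb-bt in the reference strain. Alas2, the erythroid form of 5-aminolevulinate synthase, catalyses the first step of haem synthesis in red cell precursors, and its mRNA, like that of the globins, persists in reticulocytes, the young red cells that have lost their nucleus. Slc4a1 encodes band 3, the main anion exchanger of the red cell membrane. Gata1 and Klf1 encode transcription factors that drive erythroid genes, Epor encodes the erythropoietin receptor, and all of these are expressed in nucleated precursors of the marrow and spleen. Gata1 is also expressed in mast cells, eosinophils and megakaryocytes.

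The upstream sequences of an alpha globin gene, a beta globin gene and Alas2 are shown because the signals of these genes varied together. Each window is the 250 bases before the gene's start in RefSeq on GRCm38.p6, written 5′ to 3′ on the gene's strand. The windows are chr11:32283422-32283671 on the plus strand for Hba-a1, chr7:103827929-103828178 on the minus strand for Hbb-bs and chrX:150547167-150547416 on the plus strand for Alas2. Capitals mark matches on either strand to the GATA core (AGATAA or TGATAA), to the CACCC box (CCACCC or CACACCC) and to the CCAAT box.
Hba-a1: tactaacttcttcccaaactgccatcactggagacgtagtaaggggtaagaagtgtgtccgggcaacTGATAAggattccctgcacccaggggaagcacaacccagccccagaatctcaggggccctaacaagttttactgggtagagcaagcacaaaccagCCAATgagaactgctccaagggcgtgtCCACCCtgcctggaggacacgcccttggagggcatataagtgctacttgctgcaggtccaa
Hbb-bs: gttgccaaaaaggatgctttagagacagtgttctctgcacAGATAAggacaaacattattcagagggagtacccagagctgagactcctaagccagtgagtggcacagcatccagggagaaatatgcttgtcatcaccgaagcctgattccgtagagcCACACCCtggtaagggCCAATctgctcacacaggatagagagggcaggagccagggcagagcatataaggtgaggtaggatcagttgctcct
Alas2: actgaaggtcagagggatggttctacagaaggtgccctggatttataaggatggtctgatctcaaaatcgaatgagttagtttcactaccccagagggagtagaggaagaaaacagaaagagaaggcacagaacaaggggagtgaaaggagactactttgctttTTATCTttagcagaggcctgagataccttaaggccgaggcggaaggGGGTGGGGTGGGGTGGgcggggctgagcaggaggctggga
Hba-a1 and Hbb-bs each held 1 match of each kind, with the GATA core beginning at positions -183 and -210 from the start, the CACCC box at -61 and -92, and the CCAAT box at -88 and -76. Hbb-bt, the other adult beta gene of the reference strain, held 0 GATA cores, 1 CACCC box and 3 CCAAT boxes. Alas2 held 1 GATA core at -86, read on the other strand, and 3 CACCC matches on the other strand that each overlap the next by 1 base, and no CCAAT box.

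Matches of this kind are common. Among 32851 windows of the same length, 16.6% held the GATA core, 32.7% the CACCC box and 33.8% the CCAAT box. The windows of Klf1, Gata1 and Epor held them as well, with 1 match of each kind for Klf1, 2 CACCC boxes for Gata1, and 1 GATA core and 2 CACCC boxes for Epor. With the bases just after the start included, the windows of Hba-a1 and Hba-a2 share a run of 297 of 300 bases. These genes lie on chromosome 11 at 32283672 to 32284486 and 32296492 to 32297310. RefSeq places Hbb-bs on chromosome 7 at 103826523 to 103827928, Alas2 on chromosome X at 150547417 to 150570622, Slc4a1 on chromosome 11 at 102348820 to 102365281, Klf1 on chromosome 8 at 84901982 to 84905291, Gata1 on chromosome X at 7959260 to 7976663 and Epor on chromosome 9 at 21958897 to 21963576.

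The values are log2 RMA signals, so that 1 unit is a 2-fold change, and a difference is given ± the standard error of a limma fit over all 12 arrays. The median standard error over all probe sets was 0.13, and the number of arrays limits the precision. Arrays within the PBS and Dox groups resembled each other, with a mean correlation of 0.983 to 0.991 to the others of their group, whereas CP-Dox replicate 2 stood at 0.956 and the other CP-Dox arrays at 0.975 to 0.980. For the labelled tissue, the epithelial gene Epcam had group means of 5.68 to 6.62 and the enterocyte gene Fabp1 of 4.17 to 4.43, and none of 11 colon epithelial markers passed an adjusted p of 0.05 in any comparison (limma; at an unadjusted p of 0.05, 1 for Dox and 0 for CP-Dox against PBS, and 1 between the drugs). Without CP-Dox replicate 2, 1 of these markers was called lower in CP-Dox against PBS.

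Globin and Alas2 signals were lower in all 4 tumours given free Dox than in every PBS tumour, by 2.63-fold to 19.0-fold in the group means. They were also lower in CP-Dox replicates 1 to 3, whereas CP-Dox replicate 4 lay within the PBS range for 4 of the 7 probe sets and under its lower end for the other 3. The probe sets of Slc4a1, Klf1, Gata1 and Epor did not follow this pattern: their group means differed from PBS by 1.01-fold to 1.31-fold. These lay at percentiles 2.63 to 43.5 of the mean signal over all probe sets, with Alas2 at 31.5, the Hbb-b2 probe sets at 25.2 and 28.1 and the multi-symbol globin probe sets at 74.0 to 94.2. Whether the dim probe sets were above background was not tested, and a probe set near the floor of the array can show little of a fall. In RNA from whole tumours, fewer red cells or reticulocytes and less globin RNA per cell cannot be told apart.

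**Figure D1:**
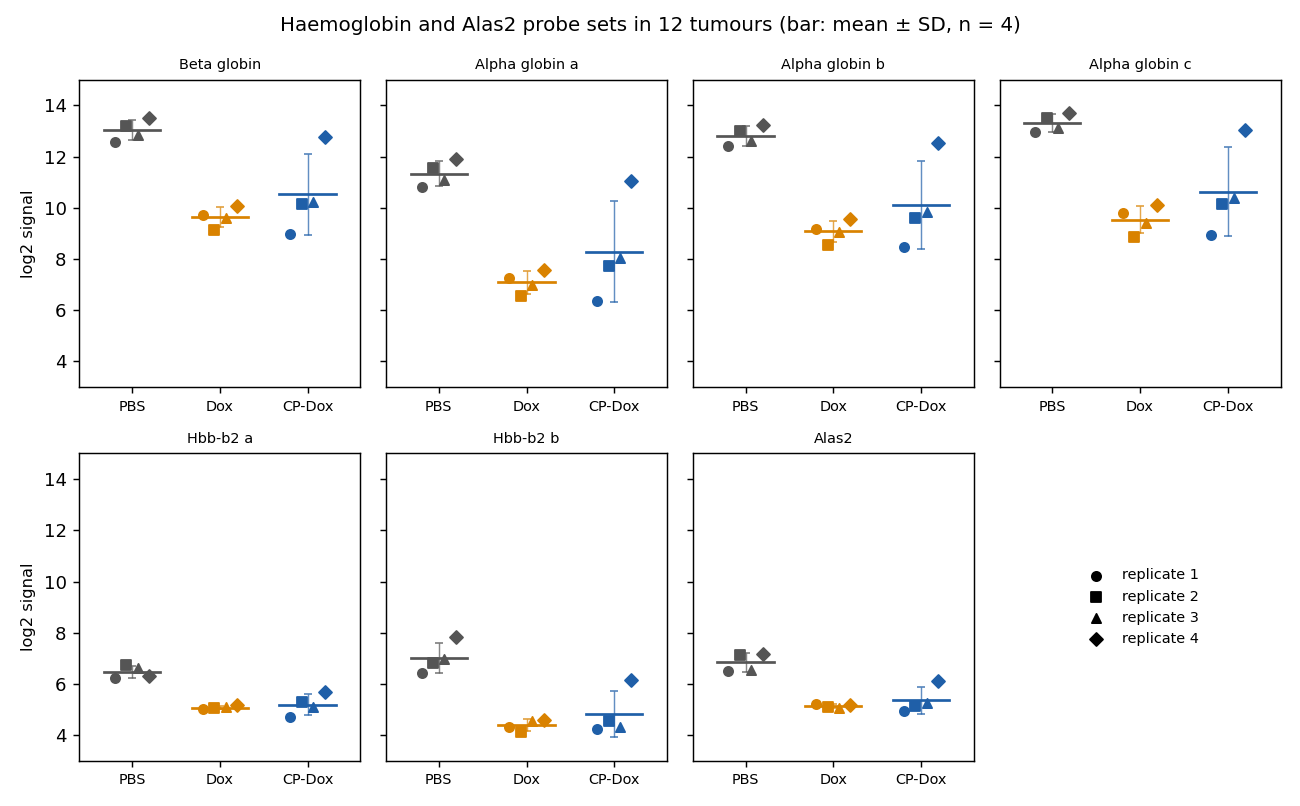
Log2 signal (y axis) of the 6 haemoglobin probe sets and Alas2 in each PBS, Dox and CP-Dox tumour (x axis), with marker shape giving the replicate number and bars the mean ± SD of 4 tumours. All Dox points lie under all PBS points in each panel, and the diamond of CP-Dox replicate 4 lies above the other CP-Dox points in each panel.

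Among the alpha globin probe sets, alpha c had log2 signals of 12.94, 13.49, 13.10 and 13.69 in PBS replicates 1 to 4, of 9.78, 8.86, 9.41 and 10.10 in Dox replicates 1 to 4, and of 8.93, 10.14, 10.40 and 13.04 in CP-Dox replicates 1 to 4. The Dox tumours did not overlap the PBS tumours, and CP-Dox replicate 4 fell among the PBS values. Compared with PBS, the Dox mean was lower by 3.77 ± 0.66 (13.7-fold, 95% interval of the fold 5.02 to 37.2). The CP-Dox mean was lower by 2.68 ± 0.66 (6.42-fold, 2.36 to 17.5). The other alpha probe sets, a and b, had the same order of groups. In alpha a the PBS tumours lay between 10.80 and 11.90, the Dox tumours between 6.54 and 7.57, and the CP-Dox tumours at 6.35, 7.72, 8.05 and 11.06. This probe set had the widest spread over the 12 tumours, 5.56 log2 units, and the largest difference of the 13, a Dox mean that was lower by 4.25 ± 0.75 (19.0-fold, 6.13 to 59.1). In alpha b the PBS tumours lay between 12.41 and 13.23, the Dox tumours between 8.56 and 9.56, and the CP-Dox tumours at 8.46, 9.62, 9.84 and 12.55.

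The beta globins behaved alike. The beta globin probe set, assigned to Hbb-bt, Hbb-bs, Hbb-b2 and Hbb-b1, had log2 signals of 12.58, 13.20, 12.85 and 13.50 in the PBS tumours, of 9.70, 9.14, 9.62 and 10.08 in the Dox tumours, and of 8.97, 10.17, 10.21 and 12.75 in the CP-Dox tumours. Expressed as a share of the PBS mean, the Dox tumours held 6.71% to 12.9% of this signal, CP-Dox replicates 1 to 3 held 5.99% to 14.2%, and CP-Dox replicate 4 held 82.3%. Against PBS the Dox mean was lower by 3.40 ± 0.61 (10.5-fold, 4.22 to 26.4) and the CP-Dox mean was lower by 2.51 ± 0.61 (5.68-fold, 2.27 to 14.2). The 6 pairs among the 4 multi-symbol probe sets correlated over the 12 tumours with r of 0.998 to 0.9996. These probe sets match several near-identical genes, so that their agreement is between overlapping measurements and no single alpha or beta gene can be assigned a value from them.

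A pair of further probe sets is assigned to Hbb-b2, an adult beta globin gene, with no other symbol. Whether they also detect its near-identical relatives was not tested. In Hbb-b2 b the signals were 6.45, 6.83, 6.96 and 7.82 in the PBS tumours, 4.33, 4.11, 4.57 and 4.61 in the Dox tumours, and 4.26, 4.54, 4.34 and 6.15 in the CP-Dox tumours. In Hbb-b2 a they were 6.23, 6.72, 6.63 and 6.31 in the PBS tumours, 5.01, 5.04, 5.09 and 5.16 in the Dox tumours, and 4.73, 5.29, 5.10 and 5.69 in the CP-Dox tumours. Here every CP-Dox tumour, replicate 4 included, lay under every PBS tumour. In probe set b the Dox mean was lower by 2.61 ± 0.39 (6.10-fold) and the CP-Dox mean was lower by 2.19 ± 0.39 (4.58-fold) than PBS. In probe set a the differences were -1.40 ± 0.18 (2.63-fold) and -1.27 ± 0.18 (2.42-fold). The share of the PBS mean in CP-Dox replicate 4 was 54.8% for b and 58.0% for a, compared with 82.3% to 83.8% for the 4 multi-symbol ones.

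Alas2, the erythroid haem synthesis gene, followed the globins. Its signals were 6.52, 7.15, 6.55 and 7.17 in the PBS tumours, 5.22, 5.11, 5.07 and 5.20 in the Dox tumours, and 4.94, 5.15, 5.26 and 6.11 in the CP-Dox tumours. No Dox or CP-Dox tumour reached the lowest PBS value, and CP-Dox replicate 4, at 60.3% of the PBS mean, again stood above the other 3. Relative to PBS its Dox mean was lower by 1.70 ± 0.23 (3.24-fold, 2.27 to 4.61) and its CP-Dox mean was lower by 1.48 ± 0.23 (2.79-fold, 1.96 to 3.97).

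**Figure D2:**
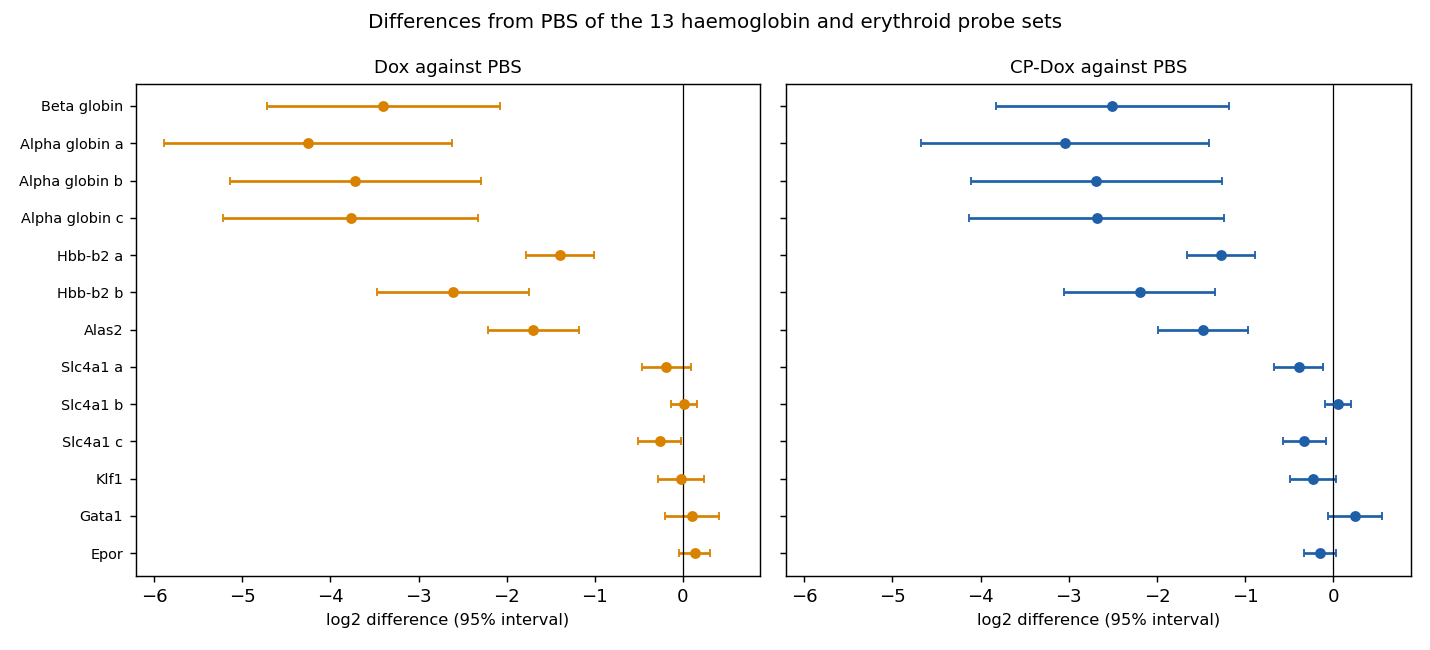
Log2 difference from PBS (x axis, point with its 95% interval from the limma fit) of the 13 probe sets (rows), for Dox on the left and CP-Dox on the right. The 6 haemoglobin probe sets and Alas2 lie between -4.25 and -1.27, and the probe sets of Slc4a1, Klf1, Gata1 and Epor between -0.39 and 0.25.

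In Dox against PBS, 7 of the 13 probe sets were lower without overlap between the groups, against 2.14% of all probe sets, and none was higher. None of the 22626 probe sets passed an adjusted p of 0.05 (limma with Benjamini-Hochberg adjustment; 0.0% lower and 0.0% higher; lowest adjusted p = 0.123; 1018 at an unadjusted p of 0.05). That count turned on the spread estimate: a fit of the Dox and PBS arrays alone called 7 probe sets, and a fit without CP-Dox replicate 4 called 7, in both cases exactly the 6 haemoglobin probe sets and Alas2. The SD of these 7 probe sets was 0.24 to 0.58 in the PBS tumours, 0.06 to 0.53 in the Dox tumours and 0.40 to 1.98 in the CP-Dox tumours. Since the members were chosen from these signals, nothing is read from these counts or from those of the other comparisons.

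In CP-Dox against PBS, 7 of the 13 passed the threshold, all lower and again the haemoglobin probe sets and Alas2, against 3.26% of all probe sets lower (737) and 2.09% higher (472). Centring each array on its median moved that split of the whole table to 1076 lower and 371 higher and called the same 7 members. Without overlap between the groups there were 3 of the 13, both Hbb-b2 probe sets and Alas2, against 7.77% of all probe sets lower without overlap. The number of members past the threshold was 3 to 7 when single arrays were left out. It was 3, both Hbb-b2 probe sets and Alas2, without CP-Dox replicate 1 or 3, without Dox replicate 1, 3 or 4, and without PBS replicate 1 or 3. It was 4 without PBS replicate 2 or 4, each of which added a Slc4a1 probe set, and 2, Alas2 and Hbb-b2 a, in a fit of these groups alone. With array weights it was 9, the 7 together with Slc4a1 a and c, both lower.

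CP-Dox replicate 4 set much of the size of the CP-Dox difference. Without it, the difference from PBS was -3.25 ± 0.33 for the beta globin probe set and -3.96 ± 0.40, -3.50 ± 0.34 and -3.49 ± 0.37 for alpha a, b and c. For Alas2 it was -1.73 ± 0.17 without that tumour, and for Hbb-b2 a and b it was -1.44 ± 0.15 and -2.64 ± 0.26. Replicate 4 also had the highest globin mean within each of the other groups, at 11.07 among the PBS and 7.85 among the Dox tumours. The array of CP-Dox replicate 4 correlated with the other CP-Dox arrays at a mean of 0.976, within the range of replicates 1 and 3. Relative to the PBS mean, the neutrophil markers of this tumour were at 1.28 log2 units, the highest of the 12 tumours, and its platelet and megakaryocyte markers at 0.19, also the highest. Skeletal muscle markers stood at 2.20 in it, the highest of the CP-Dox group but under the PBS maximum of 3.81. Erythropoietin signalling genes stood at 0.73 in it, further erythroid transcription factors at 0.39 and haemoglobin and haem clearance genes at 0.44, each the highest of the 12 tumours. Its Gata1 signal, 6.45, was also the highest, whereas Klf1 at 6.05 and Epor at 6.46 were not. Late erythroid maturation genes stood at 0.29, red cell membrane genes at -0.04 and haem synthesis genes at -0.07, none the highest. The part of any of these in the globin signal of that tumour was not tested.

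Between the drug forms, CP-Dox and Dox, the 95% intervals of all 7 globin and Alas2 differences included 0 over the 12 tumours. The CP-Dox mean was above the Dox mean by 0.89 ± 0.61 for the beta globin probe set (95% interval -0.43 to 2.21), by 1.21 ± 0.75 for alpha a (-0.43 to 2.84) and by 0.22 ± 0.23 for Alas2 (-0.29 to 0.73). Without CP-Dox replicate 4 the differences shrank to 0.15 ± 0.33 (-0.58 to 0.88), 0.29 ± 0.40 (-0.60 to 1.17) and -0.03 ± 0.17 (-0.41 to 0.34), and those of Hbb-b2 a and b turned to -0.04 and -0.03. Without CP-Dox replicate 1 they grew to 1.41 ± 0.54 (0.21 to 2.61) for beta globin and 1.86 ± 0.66 (0.39 to 3.32) for alpha a, and the intervals of all 4 multi-symbol probe sets then lay above 0. Over all tumours the intervals still allow the drug forms to differ by more than 2-fold in the multi-symbol probe sets. The groups overlapped in 12 of the 13 probe sets, and 0 of the 13 passed the threshold, against 0.11% of all probe sets lower (25) and 0.0398% higher (9). Over all tumours the order of the group means was PBS, CP-Dox, Dox for each of the 7 probe sets, and the order of CP-Dox and Dox turned on CP-Dox replicate 4 for Alas2 and Hbb-b2.

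Slc4a1, the band 3 gene of the red cell membrane, differed far less from PBS than the globins in group means, at dim signals (percentiles 25.8, 11.6 and 2.63 for a, b and c). Its probe set a had signals of 5.81, 5.34, 5.57 and 5.83 in the PBS tumours, of 5.53, 5.34, 5.27 and 5.65 in the Dox tumours, and of 5.34, 5.37, 5.10 and 5.19 in the CP-Dox tumours. The groups overlapped, and the differences from PBS were -0.19 ± 0.13 for Dox (95% interval -0.47 to 0.09) and -0.39 ± 0.13 for CP-Dox (-0.67 to -0.11). Slc4a1 c lay between 3.74 and 4.36 in all tumours, with differences of -0.26 ± 0.11 for Dox (-0.51 to -0.02) and -0.33 ± 0.11 for CP-Dox (-0.57 to -0.08). Slc4a1 b lay between 4.63 and 4.81, and its means were above PBS by 0.01 ± 0.07 and 0.05 ± 0.07. Slc4a1 a and c were thus lower than PBS in the direction of the globins, by less than 0.4 log2 units, and b showed no direction: its CP-Dox difference was -0.004 after median centring.

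Klf1, the erythroid Krüppel-like factor that acts on CACCC boxes, had signals of 5.94, 5.86, 6.22 and 6.39 in the PBS tumours, of 6.14, 6.16, 6.06 and 5.98 in the Dox tumours, and of 5.75, 5.91, 5.80 and 6.05 in the CP-Dox tumours. All 3 groups overlapped. The difference from PBS was -0.02 ± 0.12 for Dox (-0.28 to 0.24) and -0.23 ± 0.12 for CP-Dox (-0.49 to 0.04). Gata1, the founding GATA factor of the erythroid lineage, had signals of 6.04, 5.79, 6.00 and 6.01 in the PBS tumours, of 6.13, 5.91, 5.91 and 6.31 in the Dox tumours, and of 6.41, 5.86, 6.11 and 6.45 in the CP-Dox tumours. Its groups overlapped too, with differences of 0.11 ± 0.14 for Dox (-0.20 to 0.41) and 0.25 ± 0.14 for CP-Dox (-0.06 to 0.56), so that its mean was above PBS where the globins lay below it. Over all tumours both genes lay at percentiles of mean signal just above that of Alas2 (35.3 for Klf1 and 36.1 for Gata1). In the PBS tumours alone Alas2 was the brighter, with a mean of 6.84, against 6.10 for Klf1 and 5.96 for Gata1.

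Epor, the erythropoietin receptor gene, had signals of 6.59, 6.56, 6.72 and 6.74 in the PBS tumours, of 6.80, 6.77, 6.66 and 6.91 in the Dox tumours, and of 6.46, 6.61, 6.46 and 6.46 in the CP-Dox tumours. Each CP-Dox tumour was under each Dox tumour. Relative to Dox the CP-Dox mean was lower by 0.29 ± 0.08 (-0.46 to -0.11), and this was the 1 member of 13 without overlap in that comparison, against 6.58% of all probe sets lower without overlap. Against PBS the differences were 0.13 ± 0.08 for Dox and -0.15 ± 0.08 for CP-Dox.

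**Figure D3:**
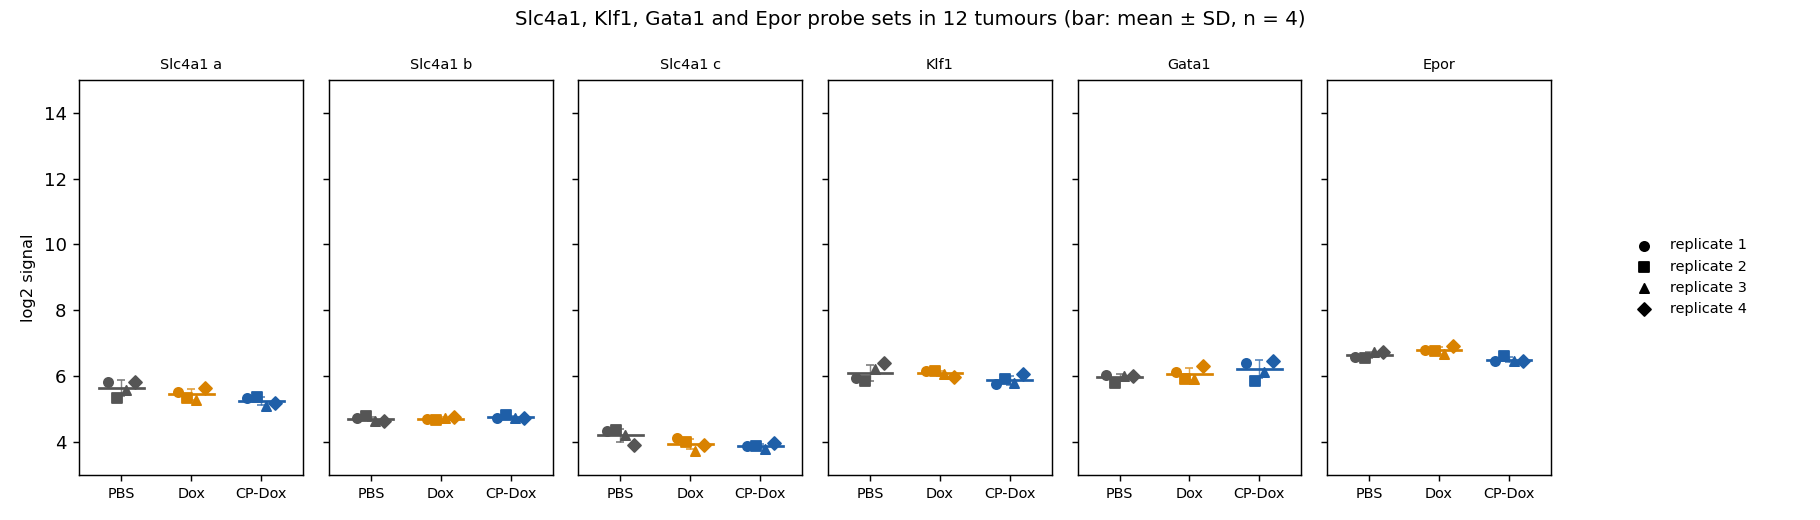
Log2 signal (y axis, the same range as for the globins) of the Slc4a1, Klf1, Gata1 and Epor probe sets in each PBS, Dox and CP-Dox tumour (x axis), with marker shape giving the replicate number and bars the mean ± SD of 4 tumours. Every probe set stays within 0.74 log2 units over the 12 tumours, compared with 2.00 to 5.56 for the globins and 2.23 for Alas2.

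Whether mature red cell genes and precursor genes moved together was also described tumour by tumour. The mean of the 6 haemoglobin probe sets was 10.24, 10.80, 10.54 and 11.07 in the PBS tumours, 7.54, 7.04, 7.45 and 7.85 in the Dox tumours, and 6.95, 7.91, 7.99 and 10.20 in the CP-Dox tumours. The tumours formed 2 clusters, 5 high (the PBS tumours and CP-Dox replicate 4) and 7 low, so that a correlation over all 12 mainly records that separation. Within the 7 low tumours, Alas2 correlated with the globin mean at r = 0.80 (rho = 0.82). Alas2 spanned only 4.94 to 5.26 in these tumours, and CP-Dox replicate 1 was the lowest for both Alas2 and the globin mean. With group means subtracted, the r of Alas2 over 12 tumours was 0.90 (rho = 0.85), and 0.72 without CP-Dox replicate 4. Over all 12 without that subtraction it was 0.97, and 0.98 without PBS replicates 2 and 4, the tumours farthest from the median. The high cluster was too small for a value of its own.

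The other genes gave lower values than Alas2 in each setting. Over all 12 tumours r was 0.59 for Slc4a1 c, 0.42 for Slc4a1 a, -0.23 for Slc4a1 b, 0.36 for Klf1, -0.16 for Gata1 and -0.13 for Epor. Within the 7 low tumours r was -0.17 for Klf1, -0.17 for Gata1 and 0.09 for Epor, and with group means subtracted over 12 tumours it was 0.46, 0.31 and 0.08. The Slc4a1 probe sets gave 0.02, 0.62 and -0.24 in the low cluster and -0.08, -0.08 and 0.02 with group means subtracted, for a, b and c in turn. All points share the array normalization, and these correlations are descriptions of 7 or 12 tumours.

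**Figure D4:**
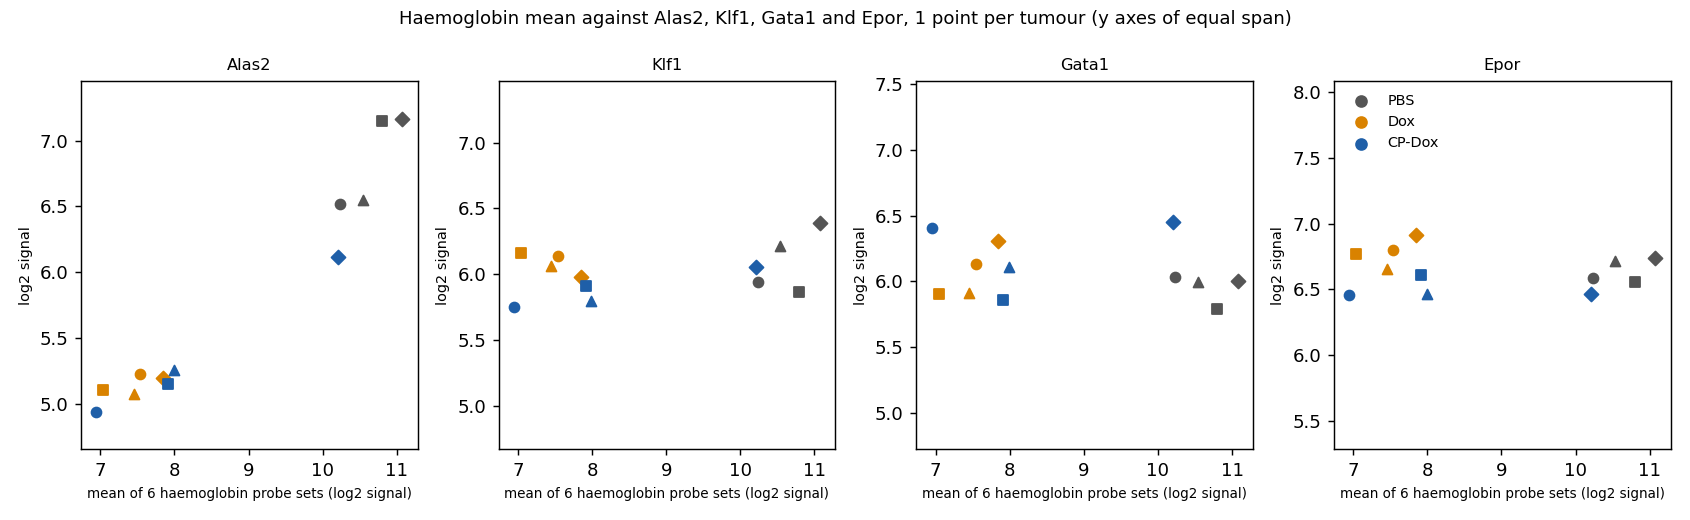
Log2 signal of Alas2, Klf1, Gata1 and Epor (y axes, all of equal span) against the mean log2 signal of the 6 haemoglobin probe sets (x axis), with 1 point per tumour, colour giving the group and marker shape the replicate number (circle 1, square 2, triangle 3, diamond 4). Alas2 is above 6.1 in the 5 tumours with a globin mean above 10 and at or under 5.26 in the other 7, whereas the other genes overlap between these sets of tumours.

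Apart from Hbb-b2, single-symbol probe sets of globin genes were dim, at percentiles 0.137 to 19.4, and did not show the difference. The 9 probe sets of Hba-a1, Hba-a2, Hba-x, Hbb-y and Hbb-bh1, the last 3 being embryonic globins, had differences of -0.09 to 0.09 for Dox and of -0.17 to 0.14 for CP-Dox against PBS. None passed the threshold (limma; lowest adjusted p = 0.402 in those comparisons). The single probe set of Hba-a1 had group means of 5.11, 5.11 and 5.11 and that of Hba-a2 of 4.81, 4.85 and 4.95, in the order PBS, Dox, CP-Dox. These did not vary with the multi-symbol alpha probe sets, and the annotation does not say which transcripts of these genes they detect.

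Other genes of the red cell programme were read from lists, with 1 probe set per gene. Of 16 red cell membrane and skeleton genes, 0 passed the threshold in any comparison (limma; at an unadjusted p of 0.05, 1 was lower in CP-Dox against PBS and 0 in the other comparisons), and their median difference was -0.04 for Dox and -0.13 for CP-Dox, beside -0.0006 and -0.04 over all probe sets. Of 11 haem synthesis genes, 0 passed (at an unadjusted p of 0.05, 1 lower for Dox, and 1 higher and 3 lower for CP-Dox, each against PBS), with medians of -0.13 and -0.23. Without CP-Dox replicate 2, 1 of them fell in CP-Dox against PBS and 0 rose. Alas1, the housekeeping form of the enzyme, was at 8.00 to 8.67 in the PBS tumours, 8.42 to 8.53 in the Dox tumours and 8.72 to 8.93 in the CP-Dox tumours. Its mean was above PBS by 0.06 ± 0.13 for Dox and 0.39 ± 0.13 for CP-Dox (limma adjusted p = 0.0945), opposite in direction to Alas2. The mitochondrial iron importer gene Slc25a37 differed from PBS by 0.04 ± 0.33 in both drug groups.

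Among 14 further erythroid transcription factors, 1 rose and 0 fell in CP-Dox against PBS, and none passed in the other comparisons (at an unadjusted p of 0.05, 0 in Dox against PBS, and 1 higher and 1 lower in CP-Dox against Dox). The riser was Klf3, which competes with Klf1 for CACCC boxes, at 0.50 ± 0.11 (limma adjusted p = 0.0255), and the call was lost without any of 5 arrays (CP-Dox replicates 1 and 3 and PBS replicates 2, 3 and 4). Tal1, a partner of Gata1, differed by 0.11 ± 0.14 for Dox and 0.21 ± 0.14 for CP-Dox. Nfe2, an erythroid and megakaryocyte factor, reached 6.03 in CP-Dox replicate 4 but no more than 5.16 elsewhere, and its CP-Dox mean was above PBS by 0.58 ± 0.24 (limma adjusted p = 0.178).

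Of 16 late erythroid maturation genes, 1 rose and 0 fell in CP-Dox against PBS, and 5 rose without CP-Dox replicate 2 and 0 without CP-Dox replicate 4. At an unadjusted p of 0.05 (limma), 4 were higher and 2 lower in CP-Dox against PBS, and 2 higher and 0 lower in Dox against PBS. The riser was Riok3, a kinase gene needed for late erythroid differentiation, at 0.40 ± 0.09 (limma adjusted p = 0.0308), and its call was lost without any of 6 arrays. Riok3 was bright in every group, with means of 10.54, 10.79 and 10.94 in PBS, Dox and CP-Dox. Trim10, of the same list, went the other way in CP-Dox against PBS, at -0.29 ± 0.09 (limma adjusted p = 0.0942), and was above PBS by 0.14 ± 0.09 for Dox. Of 13 erythropoietin signalling genes, 1 rose and 0 fell, and 7 rose without CP-Dox replicate 2. The riser was Kit, the stem cell factor receptor gene, at 1.36 ± 0.19 (limma adjusted p = 0.00433), which kept its call whichever array was left out. Kit is also a defining mast cell gene, and 9 of 15 mast cell and eosinophil markers rose in the same comparison, with Hdc at 1.73 ± 0.22, Tpsb2 at 2.04 ± 0.33 and Ms4a2 at 1.14 ± 0.20 (limma adjusted p = 0.00339, 0.00722 and 0.0107; 6 of 15 without CP-Dox replicate 4). The median of these 15 markers was 1.36 for CP-Dox and 0.15 for Dox. The means of these markers relative to PBS ranged from -0.31 to 0.18 in the PBS tumours, -0.24 to 0.72 in the Dox tumours and 0.86 to 1.12 in the CP-Dox tumours, and their part in the Kit and Gata1 signals was not tested.

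Tfrc, the transferrin receptor gene through which dividing cells and erythroid precursors take up iron, was lower in the CP-Dox than in the PBS tumours and fell by 2.10 ± 0.38 (limma adjusted p = 0.0117). Its signals were 10.16, 10.43, 10.26 and 9.58 in the PBS tumours, 9.06, 9.79, 9.39 and 9.43 in the Dox tumours, and 7.57, 9.33, 7.14 and 8.00 in the CP-Dox tumours. All 4 CP-Dox tumours, replicate 4 with its high globin signal included, lay under the lowest PBS value for Tfrc. Among them replicate 2, at 9.33, was the highest for Tfrc, and replicate 4, at 8.00, came next. For Dox the difference was -0.69 ± 0.38, which did not pass.

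Clearance of haemoglobin and haem was read from 13 genes, of which 0 passed in any comparison (limma; at an unadjusted p of 0.05, 1 lower for Dox, and 3 higher and 1 lower for CP-Dox, each against PBS), although 3 rose and 1 fell in CP-Dox against PBS without CP-Dox replicate 2. Cd163, the macrophage receptor for haemoglobin bound to haptoglobin, was at 6.65 to 8.88 in the PBS tumours, 6.96 to 8.46 in the Dox tumours and 4.65 to 6.32 in the CP-Dox tumours. Its difference from PBS was -1.73 ± 0.52 for CP-Dox (limma adjusted p = 0.078), and 0.20 ± 0.52 for Dox. Hmox1, the haem-degrading oxygenase gene, differed by -0.44 ± 0.43 for Dox and 0.51 ± 0.43 for CP-Dox, and its highest value, 10.08, was in CP-Dox replicate 4.

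Markers of other blood and vessel cells did not have the pattern of the globins. The mean of 12 platelet and megakaryocyte markers relative to PBS ranged from -0.13 to 0.14 in the PBS tumours, -0.10 to 0.17 in the Dox tumours and -0.04 to 0.19 in the CP-Dox tumours, and 1 of 12 rose in CP-Dox against PBS (Rab27b, 0.73 ± 0.17, limma adjusted p = 0.0309, a call lost without any of 6 arrays). Pf4, a platelet chemokine gene also expressed by macrophages, differed by -0.71 ± 0.28 for Dox and -0.48 ± 0.28 for CP-Dox (limma adjusted p = 0.999 and 0.33). Of 15 endothelial markers, 3 rose in CP-Dox against PBS and 0 fell, namely Plvap (1.23 ± 0.16), Pecam1 (1.02 ± 0.15) and Emcn (0.86 ± 0.13; limma adjusted p = 0.00372, 0.00524 and 0.00542). Their list mean relative to PBS was -0.23 to 0.17 in the PBS tumours, 0.01 to 0.32 in the Dox tumours and 0.44 to 0.57 in the CP-Dox tumours, so that all 4 CP-Dox tumours lay above the others, including replicate 4 with its high globin signal. Of 12 neutrophil markers, Lcn2 and S100a8 rose in CP-Dox against PBS, by 2.40 ± 0.62 and 2.09 ± 0.50 (limma adjusted p = 0.0478 and 0.0346), with 0 calls without CP-Dox replicate 4 and 6 without CP-Dox replicate 2. The Lcn2 call was lost without any of 10 arrays, and that of S100a8 without any of 6.

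Markers of tissue beside the tumour varied between tumours without following the globins. The mean of 10 keratinocyte and skin markers was 2.96 and 4.26 above PBS in CP-Dox replicates 1 and 3 but no more than 0.08 in the other 10 tumours. The mean of 11 skeletal muscle markers ranged from -2.90 to 3.81 among the PBS tumours, -2.82 to 1.80 among the Dox tumours and -0.49 to 2.20 among the CP-Dox tumours. None of either list passed the threshold (limma; at an unadjusted p of 0.05, 5 skin markers were higher in CP-Dox against PBS and 5 in CP-Dox against Dox, and 3 muscle markers in CP-Dox against Dox). Without CP-Dox replicate 2, 5 skin markers rose in CP-Dox against PBS and 1 in CP-Dox against Dox, and 0 muscle markers did.

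Single-symbol genes whose signal was most like the globin mean were ranked over the 12 tumours, among 3240 genes with an SD of at least 0.3. The 8 with the highest correlation were Ier5l (r = 0.78), Ubxn2b (0.77), Nt5dc2 (0.77), Rgs7 (0.75), Timm50 (0.75), Dnajc15 (0.72), Prkag2 (0.71) and Klk1b27 (0.71). For Alas2 the highest 5 were Ier5l (0.86), Rgs7 (0.83), Nt5dc2 (0.82), Ubxn2b (0.82) and Timm50 (0.81), all of them in the former list. None reached the 0.97 between Alas2 and the globin mean, which is no benchmark because Alas2 was chosen from these same signals. In Ier5l the PBS tumours lay between 8.89 and 9.47 and the other 8 tumours between 8.39 and 8.64, with CP-Dox replicate 4 at 8.51 and so among the treated tumours rather than the PBS ones.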

How the data were processed

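Total RNA from 12 tumours was measured on Affymetrix mouse arrays, 1 array per tumour. The values deposited by the authors are log2 signals; RMA and Partek are named in the submitters' processing notes, with no version or order. RMA normalizes between arrays, so that levels are relative. No further normalization was applied. Control probe sets were left out, and of the 22626 others 20380 had 1 gene symbol, 691 several and 1555 none. Groups came from the sample titles, in which each replicate is a separate mouse.

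All 22626 probe sets were fitted with limma 3.58.1 (lmFit, eBayes; R 4.3.3), with 1 mean per group over all 12 arrays, and p-values were adjusted by Benjamini-Hochberg over the table within each comparison (threshold 0.05). Rose and fell are used for calls outside the members. The members and the 14 gene lists were chosen with earlier results of these data known, so the members' contrasts are printed with no p, and their counts of calls are descriptive. Lists used 1 single-symbol probe set per gene, that with the highest mean. Named genes are all members, up to 4 genes per list with the lowest p past the threshold or else the 1 with the lowest p, the genes Tfrc, Cd163, Hmox1, Slc25a37, Tal1 and Nfe2, and the genes most like the globin mean (8) and Alas2 (5). Ahsp and Epo, set for naming too, had no single-symbol probe set. Alternatives were repeated quantile normalization, median centring, filtering the dimmest 40%, 1 probe set per gene, trended robust eBayes, array weights, fitting only the groups compared, a block for the replicate number, a threshold of 0.01, and leaving out each array. Correlations without CP-Dox replicate 4 or within the low tumours, and list counts without CP-Dox replicates 2 or 4, were added after the data were seen.

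Tested on simulated data for Dox against PBS over 22626 probe sets, the fit recovered 83% of 100 changes of 1 log2 unit and 99% of 100 of 3 log2 units, with 4 unchanged probe sets called. The changes were placed in probe sets drawn at random, with normal noise of the same SD in all groups. The multi-symbol globin probe sets had a wider SD in the CP-Dox tumours than in the other groups, so these rates do not describe them. Replicate numbers did not meet the rule for pairing, a correlation over 0.1 in every same-numbered pair. Promoter windows came from RefSeq on GRCm38.p6, and entries were found for 8 of the member genes.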

Additional observations from a re-analysis of the deposited data

Results flagged for a closer look

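Of 147 groups of 4 tumours examined for members and named genes, 11 held a tumour far from the other 3 by Dixon's test at 95%, a rate at which chance alone marks about 5% of groups. Among the member probe sets there were 4 in 39 groups. Hbb-b2 b was at 6.15 in CP-Dox replicate 4, where the other CP-Dox tumours were at 4.26 to 4.54. Slc4a1 b was at 4.81 in CP-Dox replicate 2, against 4.72 to 4.73. Epor was at 6.61 in CP-Dox replicate 2, against 6.46 in the other 3, and Gata1 was at 5.79 in PBS replicate 2, against 6.00 to 6.04.

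Among other named genes, the mast cell gene Ms4a2 was low in CP-Dox replicate 2 (6.16, against 6.53 to 6.57). In Dox replicate 2, the muscle genes Myh1 and Tnnt3 were high at 8.96 and 9.24 (against at most 3.78 and 4.40), as was Slc25a37 at 9.48 (at most 8.52). In Dox replicate 4, S100a8 was high at 10.50 (at most 8.34) and Nfe2 at 5.05 (at most 4.74), and in Dox replicate 1, Klf3 was at 8.74 (at most 8.41).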

How the results depend on the processing

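Differences of the 13 members stayed within 1 SD of their value under the alternatives in 744 cases and moved in 3, all for Slc4a1 b. Their sign changed in 11 of 747 cases, none of them a call: 5 for Slc4a1 b and 3 for Klf1, all at differences under 0.1, and, for CP-Dox against Dox without CP-Dox replicate 4, 1 for Alas2 and 2 for Hbb-b2. No call of a named gene turned in direction. Counts of calls moved more. For Dox against PBS the count was 1 after repeated quantile normalization (1 member, Hbb-b2 a), 7 with the compared groups alone (7 members), and 0 to 7 when single arrays were left out (0 to 7 members). For CP-Dox against PBS it was 701 with 1 probe set per gene (6 members) and 369 with the compared groups alone (2 members). Array weights called 4222 (9 members, with Slc4a1 a and c added, both lower), and trended robust eBayes called 1165 (5 members, without alpha a and c). The count was 222 at a threshold of 0.01 (2 members), and 366 to 3966 when single arrays were left out (3 to 7 members), the highest without CP-Dox replicate 2. Filtering the dimmest 40% left 5 members in the fit, of which 4 were called. For CP-Dox against Dox, 34 were called, and 91 after repeated quantile normalization, 81 with median centring, 62 without the dimmest 40%, 2879 with array weights (1 member, Epor), 0 with the compared groups alone, 1 at a threshold of 0.01, and 0 to 2043 when single arrays were left out (0 to 1 members), the highest without CP-Dox replicate 2. The cause of these shifts was not tested.

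With the replicate number as a block, 0, 1711 and 14 probe sets were called for Dox against PBS, for CP-Dox against PBS and between the drugs, with 0, 7 and 0 members. Same-numbered tumours correlated in their deviations at -0.27 to 0.51, over 0.1 in 8 of 12 pairs, beside 10 of 36 pairs with other numbers (medians 0.18 and -0.06). All pairs of numbers 1 and 4 were over 0.1, but not every pair, nor did every tumour correlate best with its own number, so the numbers were not taken as pairs.

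Correlations with the globin mean moved for Alas2 from 0.97 to 0.72 (group means subtracted, without CP-Dox replicate 4) and 0.80 (low tumours only), for Slc4a1 c from 0.59 to 0.016 (group means subtracted), -0.39 (also without CP-Dox replicate 4) and -0.24 (low tumours only), and for Slc4a1 b from -0.23 to 0.62 (low tumours only). Leaving out CP-Dox replicate 2 or 4 gave 0.97 to 0.98 for Alas2, 0.41 to 0.56, -0.24 to -0.16 and 0.58 to 0.64 for the Slc4a1 probe sets, 0.33 to 0.36 for Klf1, -0.39 to -0.23 for Gata1 and -0.14 to -0.02 for Epor. Among named genes outside the members, calls were the same in 2036 cases, gained in 49 and lost in 39. With 4 tumours per group, the 95% interval of a globin difference was wide, at most from 6.13-fold to 59.1-fold (alpha globin a, Dox against PBS).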

Other observations

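One probe set that stood eighth in order of p in Dox against PBS has no gene symbol in the annotation used and was singled out after its values were seen. It was at 5.08 to 5.57 in the PBS tumours and 4.15 to 4.72 in the other 8, its Dox mean was lower by 0.89 ± 0.16 (rank 8, limma adjusted p = 0.38), and it correlated with the globin mean over the 12 tumours at r = 0.87.

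Cldn13, a claudin gene expressed in mouse erythroid cells, had the lowest p of the membrane list in CP-Dox against PBS, at -0.48 ± 0.15 (limma adjusted p = 0.093), and -0.27 ± 0.15 for Dox. The ferroportin gene Slc40a1, which exports iron from macrophages, was at 6.36 to 8.08 in the PBS tumours, 5.14 to 6.75 in the Dox tumours and 5.90 to 7.53 in the CP-Dox tumours, with differences from PBS of -1.0 ± 0.44 for Dox and -0.40 ± 0.44 for CP-Dox (limma adjusted p = 0.999 and 0.611). Its highest CP-Dox value was in replicate 4.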
